A study of Mus musculus with 2 samples.

Results

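The epithelial regulators examined here were 10 genes: the ETS factors Elf3, Elf5 and Ehf, the Grainyhead-like factors Grhl1, Grhl2 and Grhl3, the zinc finger factors Ovol1 and Ovol2, and the splicing regulators Esrp1 and Esrp2. They were chosen by name among 14860 genes with a probe set assigned to exactly 1 gene symbol, and all 10 were found, each with 1 probe set. Their RNA was compared between cultured mouse tracheal epithelial cells of wild-type (Gprc5a+/+) and Gprc5a knockout (Gprc5a−/−) mice. Both groups came from 3-week-old animals on a C57 BL/6 × 129sv background. Cells of both groups received no treatment and were in exponential growth in K-SFM, a serum-free keratinocyte medium, to which bovine pituitary extract (50 µg/ml) and epidermal growth factor (5 ng/ml) had been added. Each genotype was 1 sample on 1 Affymetrix array, and the number of animals behind a sample is not given in the sources used here.

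ETS factors are a large family of transcription factors that share a DNA-binding domain, and Elf3, Elf5 and Ehf are its branch restricted largely to epithelia. Grainyhead-like factors activate junction and barrier genes in covering epithelia, Ovol proteins repress mesenchymal genes such as Zeb1, and ESRP proteins direct the epithelial pattern of alternative splicing, for example of Fgfr2. In airway epithelium Grhl2 and Elf3 are known as regulators of epithelial integrity and of the response to injury.

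Values are the deposited RMA values on the log2 scale, differences are knockout minus wild type, and a fold is 2 raised to the size of the difference. With 1 sample a genotype no error or test could be had, and the differences describe these 2 samples. The number of arrays limits the precision. Olfactory and vomeronasal receptor genes (800 genes), which stood for unexpressed genes, had a 95th percentile of 5.05, called the background percentile below. Genes were counted at 2-fold when the higher value exceeded 6.76, the median of both samples over all probe sets with a gene symbol, and 7943 genes passed this level limit. The targeted gene Gprc5a was at 9.49 in the wild type and 4.05, below the background percentile, in the knockout, which made it at least 21.6-fold lower with the knockout value raised to that percentile.

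The 10 regulators did not shift together. The values of 5 were higher and of 5 lower in the knockout sample, and their median difference was 0.08, beside -0.03 over all 14860 genes. The differences ran from -0.79 for Ovol1 to 1.18 for Elf3. The median size of a difference was 0.51 among the 10 genes, 0.20 among all genes and 0.24 among genes above the level limit. Elf3, Ehf, Grhl2, Esrp1 and Esrp2 had the higher values, and Elf5, Grhl1, Grhl3, Ovol1 and Ovol2 the lower ones. Of the 8 regulators above the level limit, 1 was at least 2-fold higher, against 4.62% of all genes above it, and 0 were at least 2-fold lower, against 2.97%. Over both directions the background was 7.59%. At 1.5-fold, 2 of the 8 (Elf3 and Ehf) were higher and 1 (Ovol1) was lower, where 11.0% and 7.7% of genes above the limit were higher and lower. With so few genes, 1 gene decides each of these shares.

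**Figure D1:**
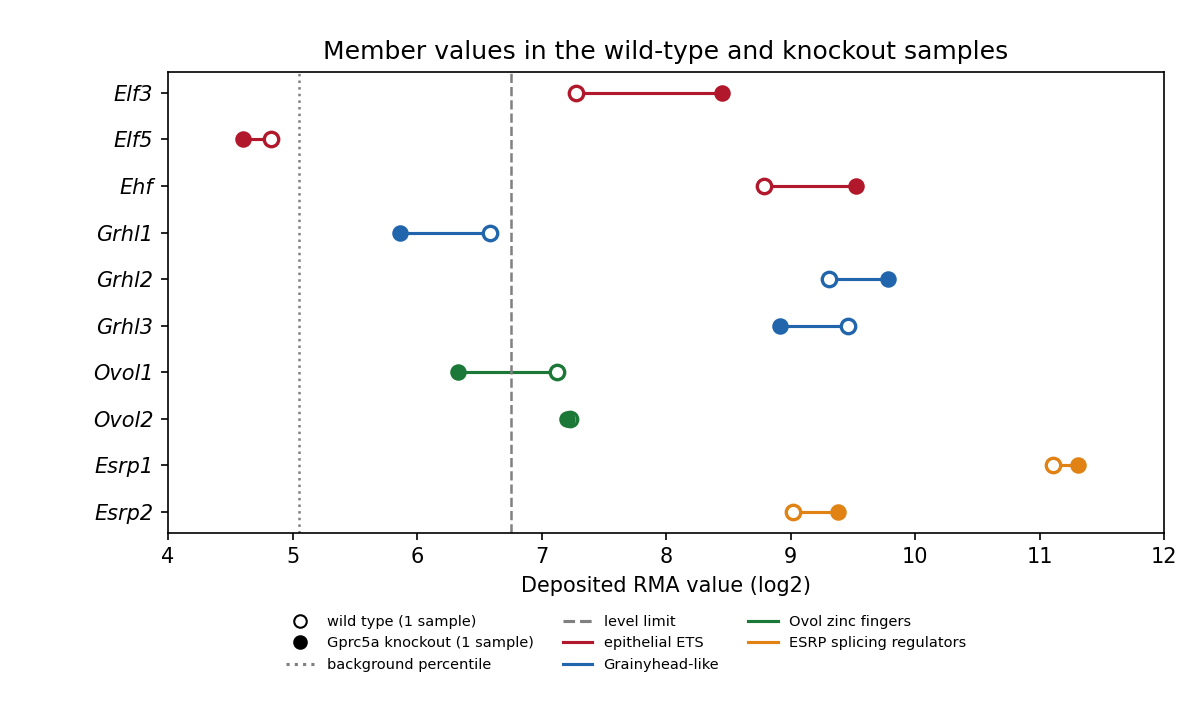
Deposited log2 values of the 10 regulators in the wild-type sample (open circles) and the Gprc5a knockout sample (filled circles), coloured by family, with the background percentile of 5.05 (dotted) and the level limit of 6.76 (dashed). Elf5 lies below the background percentile in both samples, Grhl1 lies between the lines, and the other 8 pass the limit in at least 1 sample.

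Among the epithelial ETS factors, Elf3 and Ehf were higher in the knockout sample and Elf5 was at background in both. Elf3, known for its induction by inflammatory cytokines in epithelial cells, was at 7.28 in wild-type cells and 8.45 in knockout cells, a difference of 1.18 or 2.26-fold. Both values were above the level limit, and 5.82% of the genes above it differed by as much or more in either direction. Ehf, expressed mainly in glandular and airway epithelia, went from 8.79 to 9.52, a difference of 0.73 or 1.66-fold. A difference of that size or larger was seen for 13.2% of genes above the limit. Elf5, best known for its role in the mammary alveolus and the trophoblast, was at 4.83 and 4.60. Both values lay below 5.05, so its difference of -0.23 says nothing about a direction. Elf5 and Ehf lie near each other on 1 chromosome, with 1 measured gene, BC016548, between them in the order of genes.

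The Grainyhead-like factors diverged, with Grhl2 higher and its relatives lower in the knockout sample. Grhl2, which activates Cdh1 and claudin genes, was at 9.31 in wild-type cells and 9.78 in knockout cells, a difference of 0.47 or 1.39-fold. Grhl3, which is needed for the epidermal barrier in the mouse, was at 9.46 and 8.91, a difference of -0.55 or 1.47-fold. Grhl1, which activates desmosomal cadherin genes in skin, was at 6.58 and 5.87, a difference of -0.72 or 1.64-fold. Both of its values were above background and below the level limit, so it entered no count. The difference of Grhl2 thus lay 1.03 above that of Grhl3 and 1.19 above that of Grhl1 on the log2 scale. Differences as large as those of Grhl2 and Grhl3, in either direction, were seen for 24.9% and 20.2% of genes above the level limit.

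Of the Ovol factors, Ovol1 was lower in the knockout sample and Ovol2 was nearly level. Ovol1, which takes part in the exit of mouse epidermal progenitors from the cell cycle, was at 7.12 in wild-type cells and 6.33 in knockout cells, a difference of -0.79 or 1.73-fold. It passed the level limit by its wild-type value alone, which favours a lower knockout value, and 11.5% of genes above the limit differed by as much or more. Ovol2, which holds back mesenchymal transition in epithelia, was at 7.23 and 7.20, a difference of -0.03. Of the genes above the limit, 93.1% differed by as much or more.

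Both splicing regulators were bright and slightly higher in the knockout sample. Esrp1 was at 11.11 in wild-type cells and 11.31 in knockout cells, a difference of 0.20 or 1.14-fold. Esrp2 was at 9.02 and 9.38, a difference of 0.36 or 1.29-fold. Differences at least as large, in either direction, were seen for 57.2% of genes above the limit in the case of Esrp1 and 34.6% in that of Esrp2. The values are summaries over a whole transcript, so splicing itself was not measured.

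**Figure D2:**
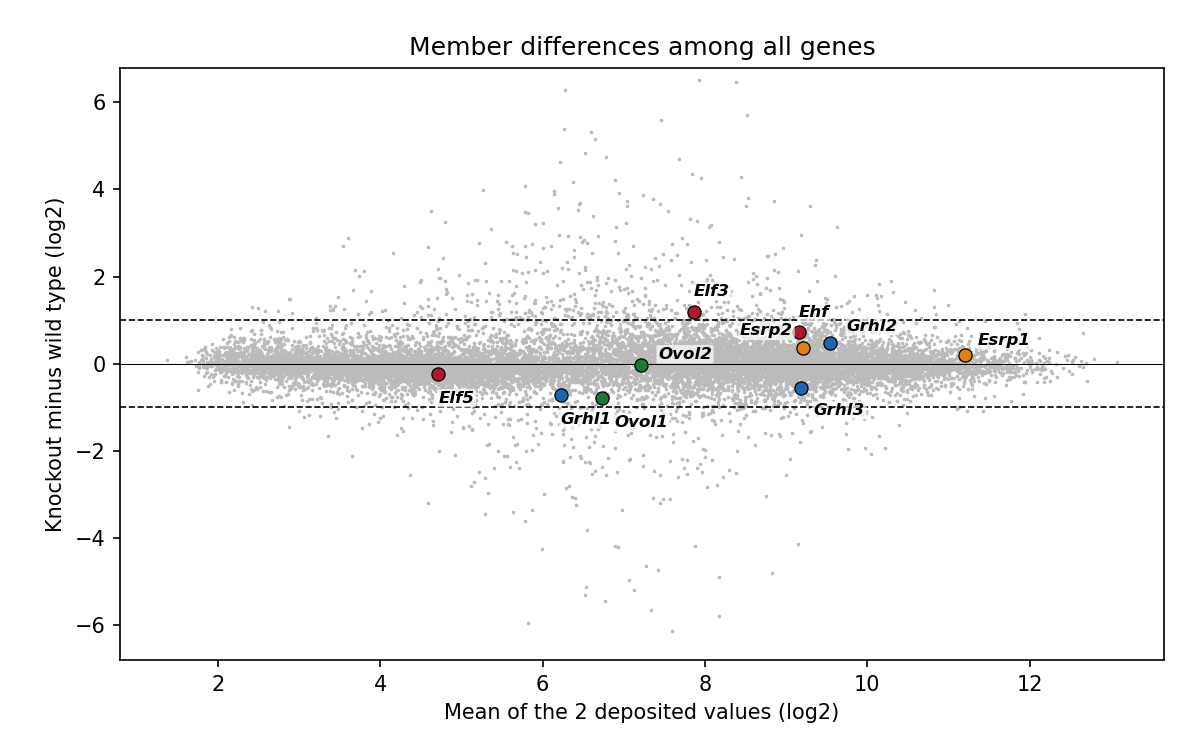
Difference between the knockout and the wild-type sample (y axis, log2) against the mean of the 2 values (x axis, log2) for all 14860 genes (grey) and the 10 regulators (coloured by family as in the plot of values by sample), with dashed lines at 2-fold. Elf3 at 1.18 is the regulator beyond a dashed line, and the other 9 lie inside them.

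The upstream sequence was looked at for binding letters of these factors and of the E-box repressors, since ZEB and SNAI proteins bind the E-box CACCTG and are known to repress epithelial genes. RefSeq promoter windows (GRCm38.p6) were matched by symbol for 5 regulators, Elf3, Elf5, Grhl1, Grhl3 and Ovol2, with 7 annotated start sites. Ehf, Grhl2, Ovol1, Esrp1 and Esrp2 were not matched. In the 250 bases before each start site, searched on both strands, CACCTG was found in 3 of the 7 windows, in those of Elf3, Grhl3 and the first start site of Elf5, and in 17.2% of 32851 windows of all genes. The Grainyhead-like letters AACCGGTT (0.116% of all windows), the ETS letters CCGGAAG (6.91%) and the Ovol letters CCGTTA (2.18%) were in none of the 7. A match is a description of letters and not a binding site, and a missing match says only that these letters are not in the window. The 3 windows with the E-box are shown because they belong to a regulator higher in the knockout sample, one lower and one at background. They read 5′ to 3′ on the gene's strand, end at the base before the start site and have the E-box in capitals.
Elf3, chr1:135258473-135258722 (- strand): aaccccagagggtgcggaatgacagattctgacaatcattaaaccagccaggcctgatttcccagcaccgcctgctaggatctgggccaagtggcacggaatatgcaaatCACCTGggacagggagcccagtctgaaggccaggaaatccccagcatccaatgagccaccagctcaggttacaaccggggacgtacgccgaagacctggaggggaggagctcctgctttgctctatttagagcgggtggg
Grhl3, chr4:135573633-135573882 (- strand): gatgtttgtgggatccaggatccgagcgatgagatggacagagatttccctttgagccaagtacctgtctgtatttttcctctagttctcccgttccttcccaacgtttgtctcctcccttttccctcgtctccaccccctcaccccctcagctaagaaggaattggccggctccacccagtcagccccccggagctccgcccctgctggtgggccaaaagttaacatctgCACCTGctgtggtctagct
Elf5, first start site, chr2:103411848-103412097 (+ strand): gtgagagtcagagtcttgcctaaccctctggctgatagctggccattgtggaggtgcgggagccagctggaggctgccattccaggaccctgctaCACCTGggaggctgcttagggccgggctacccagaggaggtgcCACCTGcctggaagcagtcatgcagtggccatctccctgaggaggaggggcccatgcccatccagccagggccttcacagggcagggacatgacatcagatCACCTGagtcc
The E-box began 140 bases before the start site in Elf3 and 19 bases before it in Grhl3. The Elf5 window held 3 of them, beginning 155, 112 and 11 bases before the start site. The other searched motifs were in none of these windows, so an overlap with an E-box could not occur.

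The genes of the E-box repressors and of other inducers of mesenchymal transition had a median difference near that of all genes. Of 9 measured genes, 6 were above the level limit, and the median difference over the 9 was 0.10, beside -0.03 over all genes. The value was higher in the knockout sample for 7 of the 9 and lower for 2, where 46.0% of all genes had a higher value. Of the 6, 1 was at least 2-fold higher and 1 at least 2-fold lower in the knockout sample. Among all genes above the limit the shares were 4.62% and 2.97%. Snai2, which basal epithelial cells also express, was at 11.24 and 11.35. Zeb1 was at 4.97 in the wild type, below the background percentile, and 5.23 in the knockout, and Zeb2 was at 6.86 and 6.96. The homeobox gene Prrx1 was at 4.75, below background, in wild-type cells and 7.45 in knockout cells, 5.25-fold higher with the low value raised to the background percentile. It passed the limit by its knockout value alone. The forkhead gene Foxc2 was at 7.46 and 6.38, 2.11-fold lower, and passed the limit by its wild-type value alone. Twist1 differed by 0.41 and Tcf4 by -0.35. In these bulk samples fewer cells of a type and less RNA per cell cannot be told apart.

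Relatives of the regulators differed mostly by less than 2-fold, as did most genes above the level limit. Among 18 other ETS genes measured, 12 were above the level limit, with a median difference of 0.05 over the 18. Of these 12, 0 differed by 2-fold in either direction, where 7.59% of all genes above the limit did. Elf2, an ETS factor found in most tissues, differed by 0.69, Elk3 by 0.48, Ets2 by 0.47 and Etv5 by -0.55. The CP2 genes, the nearest relatives of the Grainyhead-like genes, numbered 3 and had a median of 0.31. Tfcp2l1, a factor of naive pluripotency and of kidney epithelium, was at 6.22 in wild-type cells and 8.74 in knockout cells, a difference of 2.52 or 5.75-fold, and it passed the limit by its knockout value alone. Ubp1 differed by -0.41 and Tfcp2 by 0.31.

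Genes reported as targets of the Grainyhead-like factors stayed within 2-fold. Of 9 measured, 6 were above the level limit, and the median difference over the 9 was -0.07. Among the 6, 0 differed by 2-fold in either direction, where 7.59% of all genes above the limit did. With so few genes, a count of 0 is near that share. Cdh1, the gene of E-cadherin, was at 12.19 and 12.25, and Cldn4 at 11.68 and 11.76. The adhesion gene Epcam was at 12.30 and 11.89, Rab25, a regulator of vesicle recycling, at 11.92 and 11.82, and Arhgef19, a known Grhl3 target in planar polarity, at 7.64 and 7.10.

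Genes reported as targets of the epithelial ETS factors held single large differences in both directions. Of 11 measured, 6 were above the level limit, and of these 2 were at least 2-fold higher and 2 at least 2-fold lower, where 4.62% and 2.97% of all genes above the limit were, with a median difference of 0.03 over the 11. Cldn7, a claudin gene that ELF3 activates in human cells, was at 5.66 in wild-type cells and 8.19 in knockout cells, a difference of 2.54. Lcn2, the antimicrobial lipocalin, differed by 5.70. Both passed the limit by their knockout values alone. In the other direction, the cornified envelope gene Sprr1b differed by -4.18, from 9.97 to 5.79, and Ptgs2, cyclooxygenase-2, by -2.08, from 11.08 to 9.00. Sprr1b passed the limit by its wild-type value alone, and with both samples required above it 0 genes were higher and 1, Ptgs2, was lower. Sprr1b belongs to a family of close paralogs, and its probes may not tell all of them apart. Its paralog Sprr1a was at 11.14 in wild-type cells and 10.42 in knockout cells, a smaller difference of -0.72.

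Genes whose transcripts the ESRP proteins splice stayed within 2-fold in total signal. All 12 measured were above the level limit, and the median difference was 0.16. Among the 12, 0 differed by 2-fold in either direction, where 7.59% of all genes above the limit did. With so few genes, a count of 0 is near that share. The value was higher in the knockout sample for 8 and lower for 4, where 51.8% of genes above the limit had a higher value. Fgfr2 was at 9.40 and 9.59, and Cd44 at 11.23 and 11.47. Exoc7, an exocyst subunit gene, differed by 0.66, the actin regulator gene Enah by 0.36, Nf2 by 0.26 and Arfgap1 by -0.24. Of 13 other splicing factor genes, 12 were above the limit, and the median over the 13 was -0.04. Of these 12, 0 differed by 2-fold, again beside 7.59% of all genes above the limit. Rbm47, an RNA-binding protein of epithelia, differed by 0.30, Celf2 by 0.46, Rbfox2 by 0.18 and Ptbp2 by -0.23.

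Of 13 other epithelial transcription factor genes measured, 10 had a lower and 3 a higher value in the knockout sample, where 54.0% of all genes had a lower value, and the median difference was -0.20. Among the 9 above the level limit, 1 was at least 2-fold higher and 0 were at least 2-fold lower, where 4.62% and 2.97% of all genes above it were. Zfp750, a regulator of epidermal differentiation, was at 6.45 in wild-type cells and 8.38 in knockout cells, a 3.81-fold difference, and passed the limit by its knockout value alone. Foxa1 was at 9.33 and 8.36, a difference of -0.97, Hopx differed by -0.77 and Tfap2c by 0.71. Hopx passed the limit by its wild-type value alone and Tfap2c by its knockout value alone.

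**Figure D3:**
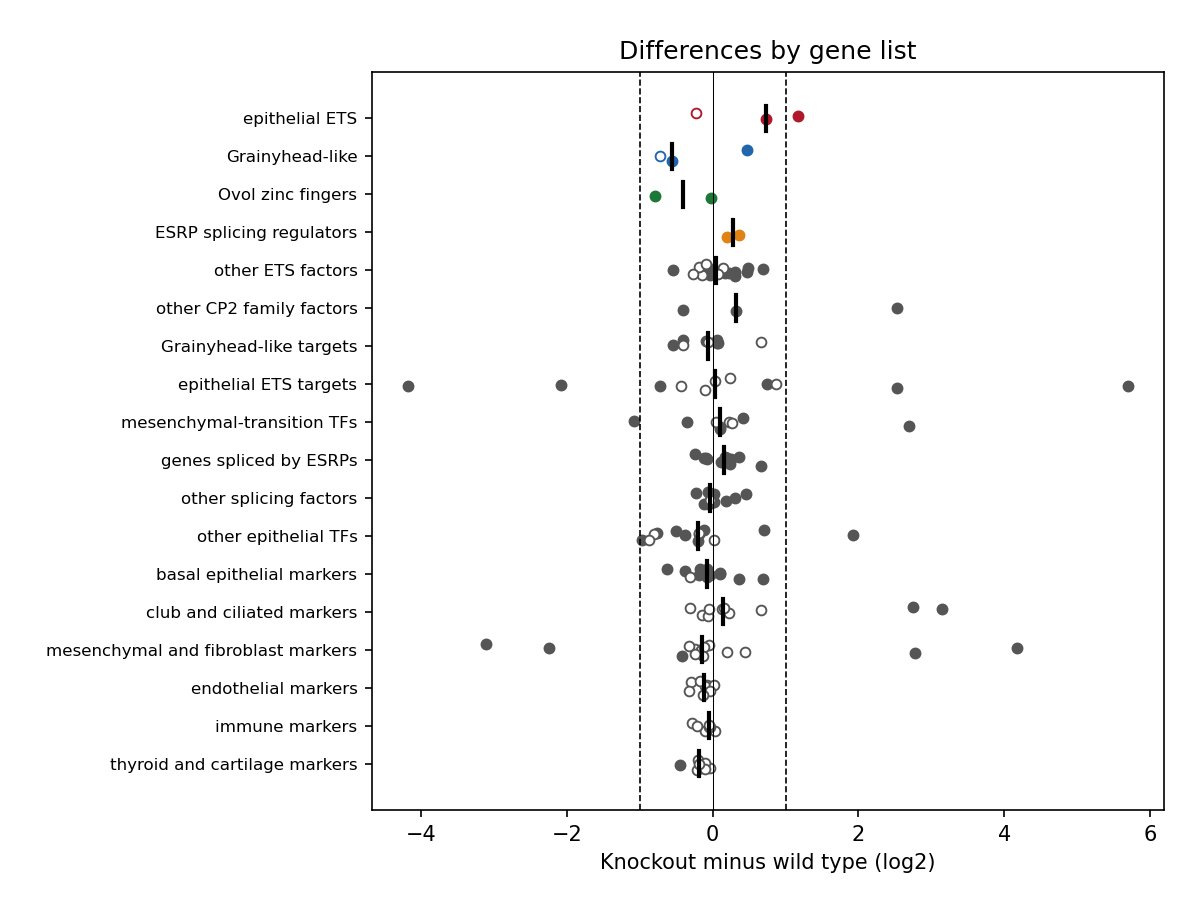
Difference between the knockout and the wild-type sample (x axis, log2) for every measured gene of the 4 regulator families (coloured) and of the other gene lists (grey), with filled circles for genes above the level limit, open circles for the others, a black bar at each list's median and dashed lines at 2-fold. Points are spread vertically within a list only for visibility. The 10 regulators lie between -0.79 and 1.18, while single genes of the epithelial ETS target list reach -4.18 and 5.70.

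The labelled cell type was checked against markers. Of 12 measured basal epithelial genes, 11 were above the level limit, with a median difference of -0.08 over the 12. Among the 11, 0 differed by 2-fold, where 7.59% of all genes above the limit did. With so few genes, a count of 0 is near that share. Krt5 was at 12.71 and 12.62 and Krt14 at 12.49 and 12.59. Krt15 differed by 0.69, Lamb3 by -0.62, Krt17 by -0.39 and Dlk2 by 0.36. Of 10 club and ciliated cell genes, 8 were below the background percentile in both samples. Cyp2f2 at 6.48 and 9.63 and Foxj1 at 6.22 and 8.97 were above the level limit, both by their knockout values alone, while the defining club cell gene Scgb1a1 was at 2.35 and 2.30, below background. The summed linear level of the 10 was 276 in wild-type and 1410 in knockout cells. Most of the knockout sum was Cyp2f2 and Foxj1, and the other 8 genes were those below background in both samples. Of 14 mesenchymal genes, 5 were above the level limit. Of these 5, 2 were at least 2-fold higher and 2 at least 2-fold lower, each past the level limit in 1 sample alone. Over all genes above the limit the shares were 4.62% higher and 2.97% lower. Postn was at 4.28, below background, in wild-type cells and 8.46 in knockout cells, 10.6-fold higher with the low value raised to the background percentile, and Acta2 differed by 2.78. Sparc differed by -3.11 and Vim by -2.24. Col1a1 was at 6.15 and 6.09, Pdgfra, below background in both, at 4.33 and 4.52, and the summed linear level of the list was 5650 in wild-type and 4390 in knockout cells. Most of that sum was Fn1, the fibronectin gene, at 12.15 and 11.73, and without it the sums were 1100 and 997. The part of these differences in the values of Elf3, Ehf, Grhl2 and Ovol1 was not tested. None of 8 endothelial and 7 immune genes was above the level limit, with Egfl7 at 6.46 and 6.13, Vwf at 5.08 and 4.90, Cd68 at 6.63 and 6.67 and Cd3e at 5.38 and 5.09. Of 7 thyroid and cartilage genes, Sox9 alone was above it, at 10.14 and 9.70.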

How the data were processed

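RNA of 2 samples, 1 wild type and 1 Gprc5a knockout, was hybridised to Affymetrix arrays. The deposited values are log2 values; RMA and Affymetrix Expression Console are named, without versions, in the submitters' processing notes. Neither the genome build nor the filters, nor which arrays were normalized together, is given in the sources used here. The sorted columns of the deposited log2 table differed by at most 0.17, so a change in total RNA could not be seen. No detection calls were used.

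Of 23332 probe sets, the platform annotation gave 1 gene symbol to 14996, several to 1019 and none to 7317. A gene with several probe sets (135 genes) was taken at the one with the highest mean. Differences, folds, counts and list medians were computed in Python 3.11.15 with pandas 2.3.3 and numpy 2.4.6, and the counting was tested on simulated data. No model was fitted, because 1 sample a group gives no error.

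The regulators and gene lists were chosen with earlier results of these data known. Named were Gprc5a, the 10 regulators and, from each other list, up to 4 genes with the largest difference above the level limit, or the 2 brightest where none passed. Zeb1, Zeb2, Snai2, Cdh1, Fgfr2, Cd44, Krt5, Krt14, Scgb1a1, Fn1, Col1a1, Pdgfra and BC016548 were named after their values were seen. So were Sprr1a and the genes beside Grhl1 and Esrp1. Gene order and promoter windows came from RefSeq GRCm38.p6. The alternatives were another treatment of low values, centring, choice of probe set, level limit and fold threshold.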

Additional observations from a re-analysis of the deposited data

How the results depend on the processing

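Each regulator has 1 probe set, so the choice of probe set could not change its value, and centring moved every gene alike, by 0.03 over all genes or 0.02 over those above the level limit. Raising low values to the background percentile changed 1 of the 10 differences, that of Elf5, which became 0.0. The 95 recomputed list medians moved by less than 0.18, the median spread between probe sets of 1 gene. With no level limit, or with both samples required above it, the count of regulators stayed at 1 higher (Elf3) and 0 lower. At a 1.5-fold threshold 2 regulators were higher and 1 lower, and at 3-fold 0 were higher. The counts of all genes were 874 higher and 612 lower at 1.5-fold, 174 and 118 at 3-fold, and 164 and 106 with both samples required above the level limit. Of the 14 differences of 2-fold reported for the other lists, 13 were no longer counted with both samples required above the limit, and Ptgs2 was the one left. Of 252 recomputed counts for these lists, 16 moved by more than 1.5 times. Signal near background limits Elf5. No paired analysis was possible because each genotype has 1 sample.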

Other observations

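The genes next to Grhl1 in chromosome order were also lower in the knockout sample, a pattern noticed after the values were seen. On 1 side, Klf11 was at 8.18 in wild-type cells and 7.50 in knockout cells, a difference of -0.68, and Mboat2, an acyltransferase gene, was at 7.55 and 4.20. With the knockout value of Mboat2 raised to the background percentile it was 5.63-fold lower. On the other side, Iah1 was at 7.55 and 7.39, a difference of -0.16, and the predicted gene Gm5784 was at 6.78 and 5.41, a difference of -1.36. Grhl1 itself differed by -0.72. Of all genes, 54.0% had a lower value in the knockout sample. The median size of a difference was 0.24 among genes above the level limit, larger than that of Iah1. Within 2 measured genes on either side of all 10 regulators there were 37 other genes, of which 27 were above the level limit. Of these 27 genes, 2 differed by at least 2-fold, Mboat2 and Gm5784, both beside Grhl1, where 7.59% of all genes above the limit did. Both passed the limit by their wild-type values alone, which favours a lower knockout value. The other 25 ranged from -0.68 for Klf11 to 0.57 for Ints8, a neighbour of Esrp1. Whether the shared direction around Grhl1 has to do with the position was not tested.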
